A study of Mus musculus with 2 samples.

Results

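The miR-29 family comprised 4 of the 2202 microRNA (miRNA) genes counted in mouse cortex, the rows whose identifier carries the symbol Mir29a, Mir29b-1, Mir29b-2 or Mir29c in GENCODE M21. The tissue was the cerebral cortex of the left side from B6CASTF1/J males, F1 animals of a cross between B6 and CAST mice, taken on postnatal day 10. There was 1 group of 2 biological replicates, numbered 1 and 2 in the labels, with no treatment named and 1 library of short inserts each. The family is often described as rising while the brain matures, but 1 age was measured, so no rise or fall with age could be examined here. What could be described were the levels of the 4 genes, how they differed among themselves, and how far each differed between the libraries.

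A miRNA is cut from a hairpin-shaped precursor and guides silencing proteins to messenger RNAs that pair with its seed, bases 2 to 8 of the mature strand. miR-29 is known for targeting the de novo DNA methyltransferases, many collagens and other matrix proteins, and, in neurons, pro-apoptotic BH3-only genes. In brain it is low in progenitors and abundant in mature neurons and astrocytes. Its hairpins are transcribed in pairs from separate loci, each pair as a single primary transcript.

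The mature strands are shown first because they decide which reads can be told apart. All 4 hairpins give a 3p strand with the same seed (capitals; RefSeq, GRCm38.p6, written 5′ to 3′), and miR-29b-3p is encoded by both Mir29b-1 and Mir29b-2.
miR-29a-3p: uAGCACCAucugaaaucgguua
miR-29b-3p: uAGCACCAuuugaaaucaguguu
miR-29c-3p: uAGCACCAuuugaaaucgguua

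Counting from 1 at the 5′ end, miR-29a-3p and miR-29c-3p differed by the single substitution C10U. From miR-29b-3p to miR-29c-3p there were 3 substitutions, A18G, G21U and U22A, so their first 17 bases are the same. Among 1738 mature strands of 1005 mouse hairpins in the RefSeq table, no gene outside the family had a strand with the seed AGCACCA.

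The 5p strands, the other product of each hairpin, each have their own seed and differ between the 2 miR-29b genes, so reads of these strands separate the 2 genes.
miR-29a-5p: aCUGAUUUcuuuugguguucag
miR-29b-1-5p: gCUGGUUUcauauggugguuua
miR-29b-2-5p: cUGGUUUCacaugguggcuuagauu
miR-29c-5p: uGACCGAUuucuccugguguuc

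The 5p strand of Mir29b-2 starts 1 base further along than that of Mir29b-1. At that shift the strands differed at 2 of 21 aligned bases, and the shift gives them different seeds. In the RefSeq table, Mir6338 was the 1 gene outside the family sharing a seed with any of these strands, that of miR-29b-2-5p. That table held a mature strand for 958 of the 2202 listed genes, so the others were not searched. Mir6338 had 0 reads in both libraries, where 3 reads equal 1.12 and 1.71 CPM.

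Mir29b-1 and Mir29a (ENSMUSG00000065604.2 and ENSMUSG00000065610.1) lie on the minus strand of chromosome 6 (mm10), at 31063023 to 31063093 and 31062660 to 31062747, with 275 bases between them. Mir29a overlaps no other annotated gene, and 2 bases of Mir29b-1 overlap the exon of the long noncoding RNA gene Gm27019 on the same strand. Mir29b-2 and Mir29c (ENSMUSG00000065412.3 and ENSMUSG00000065548.1) lie on the plus strand of chromosome 1, at 195037040 to 195037120 and 195037547 to 195037634, with 426 bases between them. Both are inside an exon of the noncoding transcript A330023F24Rik. On the opposite strand both also overlap an exon of the complement regulator gene Cd46, within its untranslated part. No read was counted on the opposite strand at any of the 4 hairpins, and their unstranded and sense counts were equal, so the overlap with Cd46 did not enter the values below.

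**Figure D1:**
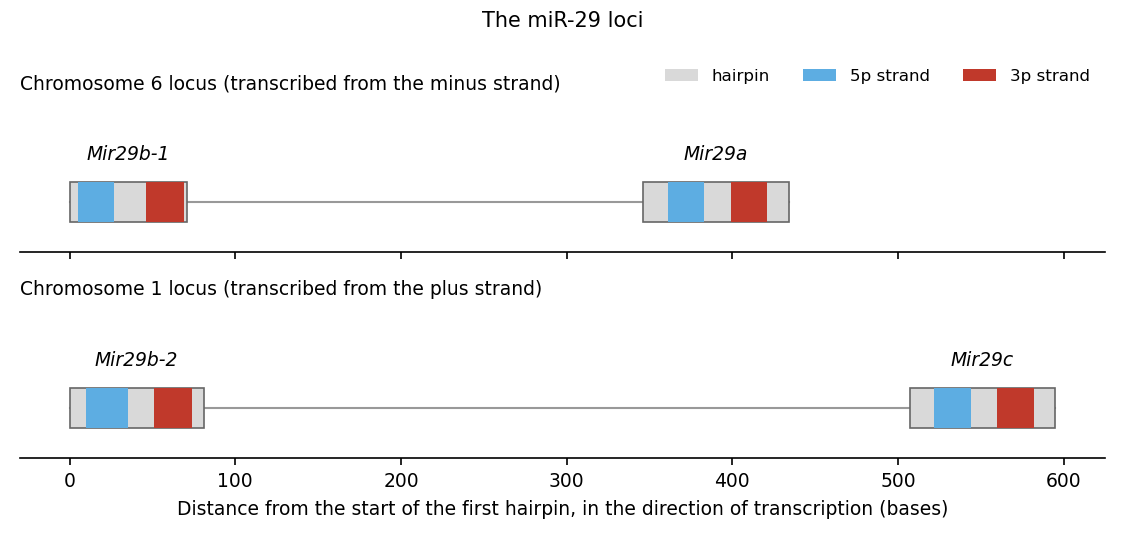
Map of the 2 loci, drawn to scale as distance in bases from the start of the first hairpin in the direction of transcription. Grey boxes are hairpins, blue the 5p and red the 3p strands. In each locus a miR-29b hairpin comes first, followed by Mir29a after 275 bases or Mir29c after 426 bases.

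The mature strands set a limit on the miR-29b counts. The hairpins of Mir29b-1 and Mir29b-2 share an unbroken run of 25 bases that holds all 23 bases of miR-29b-3p (capitals) with 2 bases before it.
run shared by Mir29b-1 and Mir29b-2: ucUAGCACCAUUUGAAAUCAGUGUU

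A read lying inside this run matches both loci, and reads mapped to more than 1 place were assigned to no gene. Such multiply mapped reads made up 38.2% of the first library and 28.3% of the second, and how many of them were miR-29b-3p is not in the files. The counts of Mir29b-1 and Mir29b-2 are therefore lower limits for the reads of these hairpins. Reads were counted per gene and not per strand of the hairpin, so the share of miR-29b-3p in these counts is not known. The levels and ranks of both genes given below are thus not a measure of miR-29b-3p. Of the 20-base windows of each hairpin, 9 of 52 in Mir29b-1 and 6 of 62 in Mir29b-2 occurred in another hairpin of the table. In Mir29c the number was 3 of 69, all shared with Mir29b-1 and ending inside the 3p strand, which leaves the full 22-base strand unique. Mir29a had 0 of 69. A read with an error or variant at base 10 could still be placed at Mir29a in place of Mir29c or the reverse, which was not tested.

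**Figure D2:**
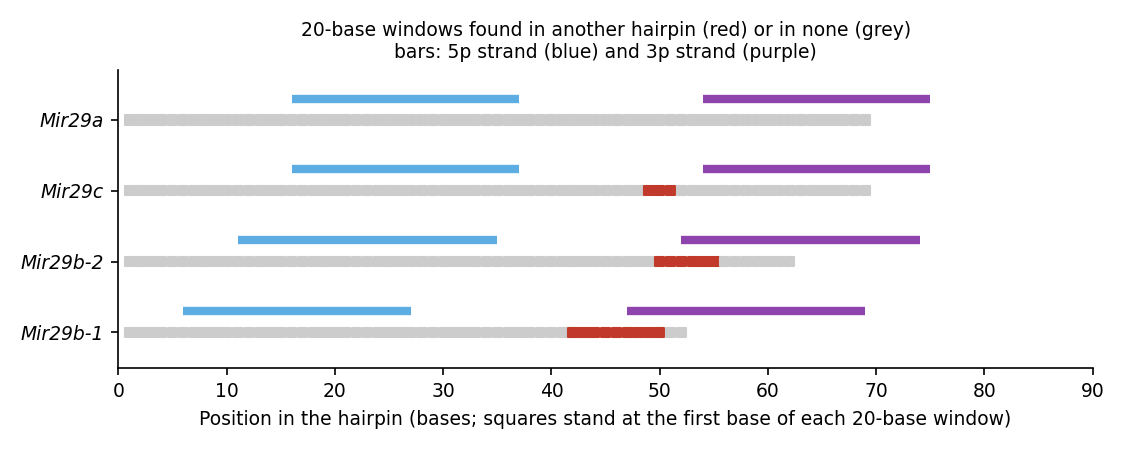
Position of every 20-base window along the 4 hairpins, in bases from the 5′ end, with red squares for windows found in another hairpin and grey squares for the others. Blue and purple bars mark the 5p and 3p strands. Shared windows lie at the 3p strand of Mir29b-1 (9), Mir29b-2 (6) and Mir29c (3), and Mir29a has none.

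Levels are given as CPM, the reads of a gene as counts per 1e6 reads assigned to miRNA genes on their own strand. These totals were 2677910 reads in replicate 1 and 1750076 in replicate 2. The mature strands are 22 to 25 bases long, so CPM were compared between genes without dividing by length. Mir29a had 2429 reads in replicate 1 and 2185 in replicate 2, or 907 CPM (exact 95% binomial interval 871 to 944) and 1249 CPM (1197 to 1302). Its mean was 1078 ± 241 CPM (SD, n = 2), and it ranked 112th and 99th of all listed genes. With multiply mapped reads added to the total the mean was 481 CPM, and the levels of the other members were lower in like measure. In uniquely placed reads Mir29a was the most abundant member in both libraries, and its libraries did not overlap in their counting intervals. Since an unknown number of multiply mapped reads were miR-29b-3p, the order of Mir29a and all miR-29b products cannot be told.

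Mir29c had 447 and 397 reads in replicates 1 and 2, or 167 CPM (152 to 183) and 227 CPM (205 to 250), with a mean of 197 ± 42.4 CPM (SD, n = 2). By uniquely placed reads it ranked 198th and 177th, below Mir29a and above both miR-29b genes in each library.

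Mir29b-2 had 123 and 66 reads in replicates 1 and 2, or 45.9 CPM (38.2 to 54.8) and 37.7 CPM (29.2 to 48.0), with a mean of 41.8 ± 5.81 CPM (SD, n = 2). Mir29b-1 had 75 and 78 reads, or 28.0 CPM (22.0 to 35.1) and 44.6 CPM (35.2 to 55.6), with a mean of 36.3 ± 11.7 CPM (SD, n = 2). The miR-29b genes changed places between the libraries, and their counting intervals did not overlap in replicate 1 but did in replicate 2. Every other neighbouring pair in the order of uniquely placed reads kept its place in both libraries. From 1 library to the other, the counting intervals of Mir29c and Mir29b-1 did not overlap, as for Mir29a, and those of Mir29b-2 did. All 4 genes reached 2 CPM in both libraries, as did 442 of the 2202 listed genes (20.1%), and among those 442 genes Mir29a stood at the 77.1st percentile of mean CPM, Mir29c at the 57.5th, Mir29b-2 at the 43.2nd and Mir29b-1 at the 40.7th.

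**Figure D3:**
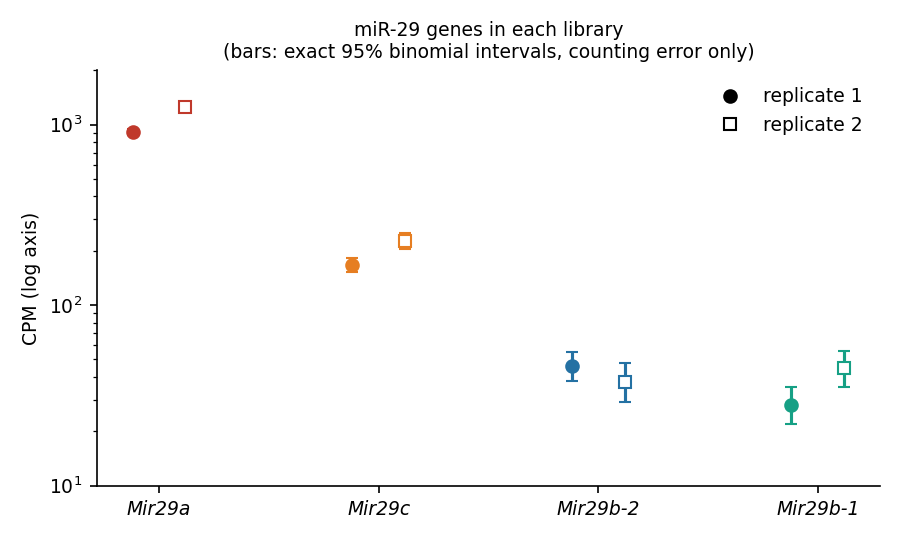
CPM on a log axis for the 4 genes in replicate 1 (filled circles) and replicate 2 (open squares), with exact 95% binomial intervals that cover counting error only. Mir29a lies at 907 and 1249 CPM, Mir29c at 167 and 227 CPM, and both miR-29b genes between 28.0 and 45.9 CPM in both libraries.

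The family as a whole held 3074 reads in replicate 1, 0.115% of assigned reads (exact 95% binomial interval 0.111% to 0.119%), and 2726 reads in replicate 2, 0.156% (0.150% to 0.162%). The mean was 0.135% ± 0.0290 (SD, n = 2), or 0.0604% with multiply mapped reads in the total. Within the family, the shares of Mir29a and Mir29c moved little between the libraries. Mir29a held 79.0% of family reads in replicate 1 and 80.2% in replicate 2, Mir29c 14.5% and 14.6%, Mir29b-2 4.00% and 2.42%, and Mir29b-1 2.44% and 2.86%. The chromosome 6 locus gave 4.39 times the reads of the chromosome 1 locus in replicate 1 (4.01 to 4.82) and 4.89 times in replicate 2 (4.42 to 5.41). These shares leave out every read that matched more than 1 place.

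Hairpins of the same locus had unequal counts although they share a primary transcript. Mir29a had 32.4 times the reads of Mir29b-1 in replicate 1 (exact binomial 95% counting interval 25.7 to 41.3) and 28.0 times in replicate 2 (22.3 to 35.6), a mean of 30.2 ± 3.09 (SD, n = 2). Mir29c had 3.63 times the reads of Mir29b-2 in replicate 1 (2.97 to 4.47) and 6.02 times in replicate 2 (4.63 to 7.93), a mean of 4.82 ± 1.68 (SD, n = 2). The intervals overlapped between the libraries at the chromosome 6 locus and did not at the chromosome 1 locus, a difference that was not tested further. Reads of miR-29b-3p that matched both loci are missing from the denominators, so these are ratios of uniquely placed reads and not of all products of the 2 hairpins.

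Across the loci, the ratio of Mir29a to Mir29c was nearly the same in both libraries, at 5.43 (4.91 to 6.02) in replicate 1 and 5.50 (4.94 to 6.14) in replicate 2. The ratio of Mir29b-1 to Mir29b-2 was 0.610 (0.451 to 0.819) and 1.18 (0.841 to 1.67), on either side of 1 and with counting intervals that do not overlap.

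Between the libraries, 3 of the 4 genes were higher in replicate 2 and 1 was lower, none of them by 2-fold. Each was tested with Fisher's exact test (two-sided) on its reads, with Benjamini-Hochberg adjustment over the 542 genes that reached 2 CPM in either library. A gene was called where the adjusted p was under 0.05 and the 2 libraries differed at least 2-fold. None of the 4 was called, while 12.0% of all tested genes were. Without the 2-fold minimum, 3 of the 4 passed, beside 42.3% of all tested genes. Of all 542 tested genes, 244 were higher and 298 lower in replicate 2. The comparison is of 2 libraries, not of conditions.

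Mir29a had a log2 ratio (replicate 2 over replicate 1) of 0.46, with a 95% counting interval of 0.38 to 0.54 and an adjusted p of 3.3e-26 by Fisher's exact test. For Mir29c the log2 ratio was 0.44 (0.24 to 0.64; adjusted p 3.7e-05, Fisher's exact test), close to that of Mir29a although the genes are on different chromosomes. Mir29b-1 had 0.67 (0.19 to 1.15; adjusted p 0.013, Fisher's exact test), on 75 and 78 reads. Mir29b-2 went the other way at -0.28 (-0.74 to 0.16; adjusted p 0.33, Fisher's exact test), and its interval includes 0. The smaller p of Mir29a beside Mir29b-1 comes with 28.0 to 32.4 times the reads, not with a larger ratio. The median log2 ratio was 0.45 over the 4 genes and -0.09 over all 542 tested genes. In size, 50.0% of tested genes had a larger ratio than Mir29a, 51.5% than Mir29c, 37.1% than Mir29b-1 and 65.5% than Mir29b-2.

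**Figure D4:**
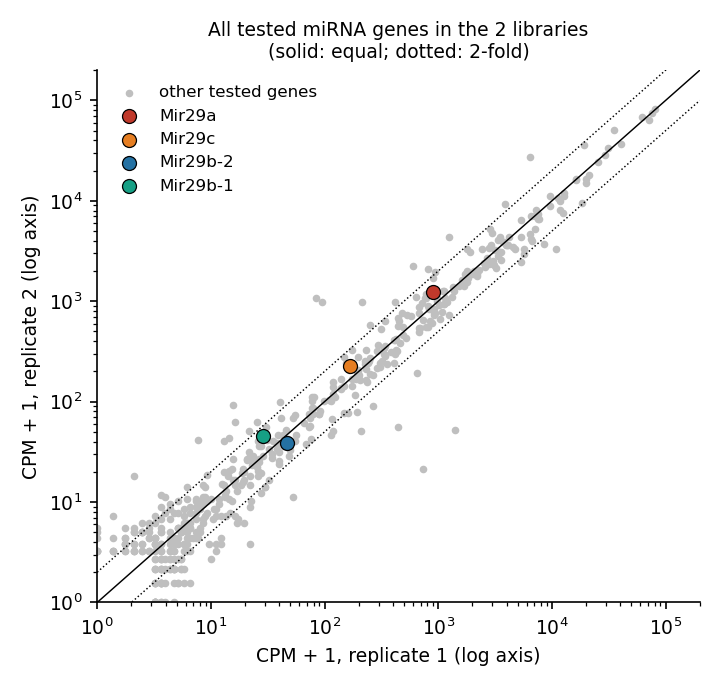
CPM + 1 of every tested gene in replicate 1 and replicate 2, both on log axes, with the 4 miR-29 genes coloured. The solid line marks equal values and the dotted lines a 2-fold difference. All 4 genes lie between the dotted lines, with Mir29b-2 alone below the solid line.

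Other miRNAs with known roles in maturing or dividing neural cells were taken as a frame for these levels. The neuronal and oligodendrocyte differentiation list has 12 genes, of which 9 reached 2 CPM in both libraries, and its summed level was 45254 CPM in replicate 1 and 36185 CPM in replicate 2. Its most abundant genes were Mir128-1 with 13876 ± 6174 CPM, Mir137 with 9938 ± 2644 CPM and Mir132, a miRNA induced by neuronal activity, with 6554 ± 3773 CPM (SD, n = 2). In uniquely placed reads Mir29a was thus below the leading neuronal genes, and above the oligodendrocyte genes Mir338 (621 ± 205 CPM) and Mir219a-2 (488 ± 214 CPM). Mir128-1 and Mir219a-2 each have a further copy in the list, and reads matching more than 1 place were assigned to no gene. Their levels may therefore be lower limits, and the order of Mir29a and Mir219a-2 holds for uniquely placed reads only. Of 12 tested genes of the list 1, Mir132, was called, higher in replicate 2, and 7 passed without the 2-fold minimum by Fisher's exact test. The shares over all tested genes were 12.0% called and 42.3% passing. The list's median log2 ratio of -0.26 joins marker groups whose medians had opposite signs. The 8 neuron markers had a median of -0.66, and the 3 oligodendrocyte markers one of 0.69, the same sign as the 0.45 of the miR-29 genes. Neither group was uniform in sign. Among the neuron markers, Mir138-1 (0.04) and Mir124a-2 (3.78, on 0 and 4 reads) were higher in replicate 2 and the others lower. The 3 Mir124a genes had at most 10 reads in a library. Mir338 (0.69), Mir219a-2 (0.92) and Mir132 (1.25) were higher in replicate 2, as were Mir29a, Mir29c and Mir29b-1. The remaining oligodendrocyte marker, Mir219a-1, was lower in replicate 2 (-0.28, on 56 and 30 reads). The list's most abundant genes, Mir128-1 (-0.94) and Mir137 (-0.55), were lower too.

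The proliferation list holds the 9 genes of the Mir17 and Mir106b clusters, miRNAs that promote cell division, and 7 of them reached 2 CPM in both libraries. Its summed level was 9891 CPM in replicate 1 and 10456 CPM in replicate 2, above the 1148 and 1558 CPM of the miR-29 family. Mir93 led it at 3794 ± 118 CPM, followed by Mir17 at 3259 ± 504 CPM and Mir106b at 1027 ± 84.1 CPM (SD, n = 2). Of its 8 tested genes 0 were called, beside 12.0% of all tested genes. Without the 2-fold minimum 5 passed by Fisher's exact test, beside 42.3% of all tested genes. The median log2 ratio of the list was -0.03.

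Some markers of choroid plexus, ciliated cells and blood also moved between the libraries. The choroid plexus and ciliated cell list (3 of 5 genes detected, that is at 2 CPM in each library) summed to 1120 CPM in replicate 1 and 2766 CPM in replicate 2, the same direction as 3 of the 4 miR-29 genes, and 3 of its 4 tested genes were called, all higher in replicate 2. The red blood cell list (3 of 3 detected) summed to 814 and 56.6 CPM, with 2 of 3 called, both lower in replicate 2. Most of that fall lay in Mir451a, at 737 CPM in replicate 1 and 20.6 CPM in replicate 2. The gene not called, Mir486, stood at 25.4 and 25.7 CPM. Among lists of cells that cortex contains, the oligodendrocyte list (3 of 3) summed to 834 and 1423 CPM and the neuron list (5 of 8) to 40534 and 25541 CPM. The neuron genes not detected were the copies Mir124a-1, Mir124a-2 and Mir124a-3. Reads matching more than 1 copy are assigned to no gene, so their low counts do not show absence. Sums over lists that hold such copies may be lower limits. The endothelial and mural list (3 of 3) summed to 13639 and 15214 CPM and the microglia and leukocyte list (6 of 6) to 8845 and 6955 CPM, and 0 genes of these 4 lists were called. Without the 2-fold minimum, 2 of 3 oligodendrocyte, 4 of 8 neuron, 1 of 3 endothelial and mural and 3 of 6 microglia and leukocyte genes passed by Fisher's exact test. Over all tested genes, 12.0% were called and 42.3% passed without that minimum. Of these lists, the oligodendrocyte and the endothelial and mural sums were higher in replicate 2, as was the miR-29 sum. Mir122 of liver stood at 55.6 and 45.1 CPM, and Mir206 of striated muscle at 21.7 and 25.7 CPM. The other 4 of the 5 striated muscle genes, the paired copies of Mir1a and Mir133a, had 0 reads, and since reads matching both copies are assigned to no gene, these zeros do not show that the miRNAs were absent. The part of these differences in the miR-29 values was not tested.

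**Figure D5:**
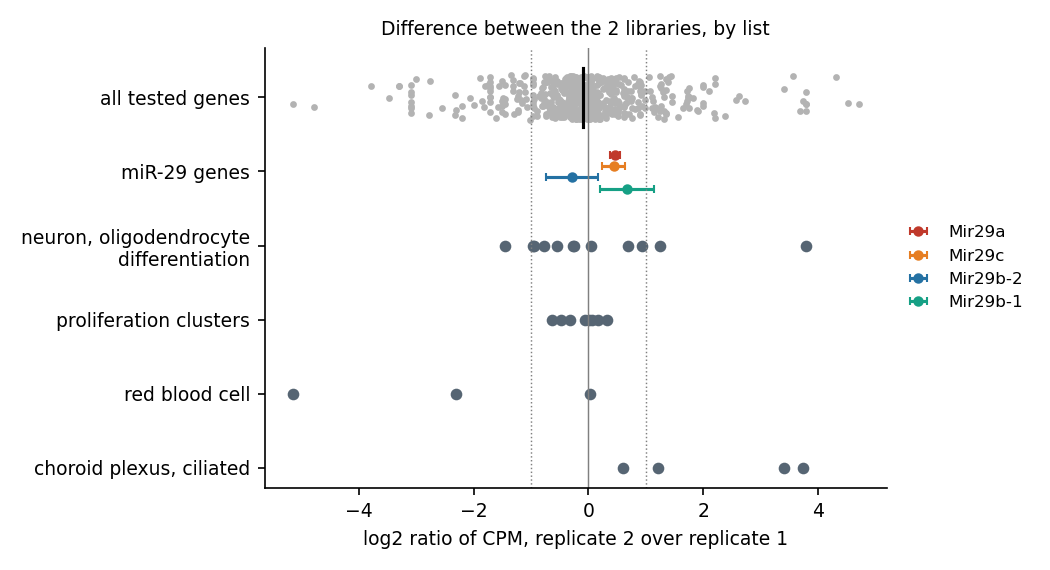
log2 ratio of CPM, replicate 2 over replicate 1, for all 542 tested genes (grey, with their median of -0.09 as a black line), the 4 miR-29 genes with 95% counting intervals, and the tested genes of 4 lists. Dotted lines mark a 2-fold difference. Mir29a, Mir29c and Mir29b-1 lie between 0.44 and 0.67 and Mir29b-2 at -0.28, while genes of the red blood cell and choroid plexus lists reach -5.14 and 3.74. Mir124a-2 of the differentiation list, on 0 and 4 reads, lies at 3.78.

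The miR-29b genes were also set beside genes of the same kind. Of 958 listed genes with a mature strand in the RefSeq table, 54 had 1 strand that occurs in another hairpin and another that does not, and 38 of these (70.4%) reached 2 CPM in both libraries, with a median of 68.6 CPM. Mir29b-2 and Mir29b-1 ranked 24th and 27th of the 38. Another 865 genes, Mir29a and Mir29c among them, shared no mature strand. Of these, 334 (38.6%) reached 2 CPM, with a median of 96.7 CPM, and Mir29a ranked 81st and Mir29c 143rd of the 334. The third kind, 39 genes with every strand shared, held 8 such genes (20.5%), with a median of 157.8 CPM, the highest of the 3 kinds. These counts are descriptions over genes, which also differ in expression.

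The hairpins are alike in other features. They are 71 to 88 bases long, 35.2% (Mir29b-1) to 44.3% (Mir29c) of their bases are G or C, and the minimum free energy predicted for folding was -34.1 kcal/mol for Mir29a, -34.8 for Mir29c, -31.1 for Mir29b-2 and -26.3 for Mir29b-1. Per base this was -0.39, -0.40, -0.38 and -0.37 kcal/mol, beside a median of -0.41 over the 1005 mouse hairpins of the table. The order of the predicted energies of the whole hairpins, from Mir29c and Mir29a to Mir29b-1, is a description of 4 sequences and carries no test.

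The genes nearest to each member in the plane of log2(CPM + 1) of both libraries were named by a fixed rule. For Mir29a they were Mir106b (distance 0.22, at 968 and 1087 CPM), Mir204 (0.24) and Mir672 (0.29), and for Mir29c Mir873a (0.15, at 165 and 205 CPM), Mir669o (0.16) and Mir212 (0.20). For Mir29b-2 they were Mir184 (0.03, at 46.7 and 38.3 CPM), Mir32 (0.12) and Mir8112 (0.13), and for Mir29b-1 Mir1264 (0.07, at 28.0 and 46.9 CPM), Mir10b (0.13) and Mir670 (0.16). No member was among the nearest 3 genes of another. With 2 libraries this nearness reflects level more than pattern.

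Over the whole series, 29.5% of 9089257 reads in replicate 1 and 23.5% of 7432614 in replicate 2 fell on the strand of a listed miRNA gene, and 25.5% and 42.4% were unmapped. Of 542 tested genes 65 were called, 31 higher and 34 lower in replicate 2.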

How the data were processed

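Short RNA of left cerebral cortex was sequenced in 2 libraries of 1 group. The deposited values are the authors' raw counts of reads for each miRNA gene, on assembly mm10 and annotation M21 per the text deposited with the samples. No source used here names the aligner, the counting program or the trimming. The sense column, 1 of 3 count columns, was used. Rows for unmapped, multiply mapped, unassigned (6.93% and 5.74% of reads) and ambiguous reads stayed out of library totals. M21 matched 2202 of 2202 identifiers, and RefSeq sequences (GRCm38.p6) matched 972 by coordinates or symbol.

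Log2 ratios had 0.5 reads added to each count. Fisher's exact test ran on all tested genes with Benjamini-Hochberg adjustment and was tested on simulated data. The simulated counts held counting error only, without variation between animals or libraries, so they do not show how the test behaves on these libraries. Intervals cover counting error only, since PCR reads are not independent molecules, and p-values say nothing of other animals. Tools were Python 3.11.15, scipy 1.17.1, pandas 2.3.3, numpy 2.4.6, ViennaRNA 2.7.2 (RNAfold) and, for TMM totals, edgeR 4.0.16 in R 4.3.3. Named were the 4 members, genes sharing their seeds, the 3 nearest genes to each and up to 3 leading genes of each list. Mir338, Mir219a-2, Mir219a-1, Mir138-1 and the Mir124a genes were named after their values were seen. Members and lists were chosen with earlier results of these data known. Alternatives were the unstranded counts, TMM totals, totals with multiply mapped reads, 1 added read, other minimum counts and single libraries.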

Additional observations from a re-analysis of the deposited data

How the results depend on the processing

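Adding reads mapped to more than 1 place to the totals lowered the mean of Mir29a to 481 CPM, Mir29c to 87.9 CPM, Mir29b-2 to 18.6 CPM and Mir29b-1 to 16.2 CPM, and the family share to 0.0604%, because those reads enter the total and no gene. Unstranded counts and TMM totals moved these values by less than 1 SD. Neither can move the 2 locus ratios, where sense and unstranded counts of the members are equal and scaling cancels. With 2 libraries, either one alone lies at a fixed distance from the mean, so leaving one out says nothing of stability. The log2 ratio of each member kept its sign and no member was called with unstranded counts, TMM totals, 1 added read, a 10 CPM minimum or no minimum beyond 1 read. Over these settings 53 to 65 genes were called in all, against 229 without the 2-fold minimum. The adjusted p of Mir29b-1 by Fisher's exact test ranged from 0.0059 to 0.017 and that of Mir29b-2 from 0.27 to 0.47. Depth limits both: the counting interval of the log2 ratio ran from 0.19 to 1.15 for Mir29b-1 (75 and 78 reads) and from -0.74 to 0.16 for Mir29b-2 (123 and 66 reads).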
